A study of Mus musculus with 2 samples.

Results

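The genes of the motile cilium's moving parts were followed through the cells of the embryonic mouse esophagus. The set holds every gene whose symbol begins with Dnah, Dnai, Dnaaf, Cfap, Drc, Rsph, Spag6, Spag16, Spag17 or Tekt, which gave 77 of the 32285 genes counted. They encode 7 outer dynein arm chains, 10 heavy chains of the inner arms and related dyneins, 7 arm assembly factors, 3 parts of the nexin-dynein regulatory complex, 10 radial spoke and 12 central apparatus proteins, 12 microtubule inner proteins and tektins and 14 other Cfap proteins, with 2 transcripts that run opposite to Dnah2 and Spag17.

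Single-cell RNA sequencing was done on esophageal epithelium of C57BL/6 embryos at E18.5, 1 library from embryos named wild type and 1 from p63-KO embryos. Trp63 encodes p63, the transcription factor that stratified epithelia need for their basal cells. Per the labels, the p63-KO embryos carried the genotype p63-CreER/p63-CreER and the littermates called wild type the genotype p63-CreER, so both libraries hold the CreER allele. Trp63 had 305 CPM (counts per 1e6 UMIs, unique molecular identifiers) in wild-type and 120.5 CPM in p63-KO epithelial cells outside the ciliated class, and 58.8 and 69.5 CPM within it. The labels do not say which bases the allele removes, so tags from the 3' end do not check the genotype. Muscle was peeled away before digestion with dispase (5 min) and 0.1% trypsin (10 min), and the cells passed a 40 µm strainer on their way to droplet capture, which reads transcripts at their 3' ends. Whether a library pools several embryos is not given in the sources used here. Neither group has a replicate, so no test between groups was made. Each difference below separates 1 library from 1 other, and the 95% intervals describe counting error alone.

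A motile cilium is built on a ring of doublet microtubules around a central pair. Dynein arms on each doublet are the motors, the nexin-dynein regulatory complex and the radial spokes carry signals from the central apparatus to them, and microtubule inner proteins and tektins stiffen the doublets. Dyneins are put together in the cytoplasm by assembly factors before they enter the cilium. In epithelia these genes belong to multiciliated cells, which the factors Foxj1 and Rfx2 or Rfx3 help to switch on. The stratified adult esophagus has no such cells, while the fetal human esophagus holds them for a time.

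After filtering, 5519 wild-type cells (median 10920 UMIs) and 2375 p63-KO cells (median 19307 UMIs) were kept, and 5 barcodes occurred in both libraries. Ciliated cells were taken from clusters made without the 77 genes, and they numbered 25 of 5359 wild-type epithelial cells, 0.467% (0.302 to 0.688), and 56 of 1678 p63-KO epithelial cells, 3.34% (2.53 to 4.31). All 14 ciliated cell markers that lie outside the set, Foxj1 and Hydin among them, were higher in both clusters than in the other epithelial cells of their library. The remaining epithelial cells numbered 5334 and 1622. Stromal cells numbered 590 in the p63-KO library (516 fibroblast-like, 74 smooth muscle or pericyte-like) and 10 in the wild-type library, too few for a comparison. The layers were separated by hand, which can set these shares.

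Some cells have to be named before any value is read. In the p63-KO library 24 of the 56 ciliated cells had over 50000 UMIs, and they supplied 76.3% of the UMIs summed for that class, against 1 of 25 wild-type ciliated cells and 11.0%. These deep p63-KO cells had 3195 CPM of mucous markers, with 6 of 6 markers found, and 4383 CPM of squamous markers, also 6 of 6, where the other epithelial cells of that library had 3201 and 4019 CPM. The 32 shallower p63-KO ciliated cells had 647 CPM of the mucous and 301 CPM of the squamous markers. The fibroblast markers stood at 1506 and 155 CPM in the deep and shallower cells, each with 7 of 7 found. All 24 deep cells had UMIs of at least 11 of the 14 ciliated markers. In the wild-type ciliated class 6 of 6 squamous markers were found, at 8191 CPM, below the 12147 CPM of other wild-type epithelial cells. More than 5% of UMIs were mitochondrial in 13 of the 24 deep and 13 of the 32 shallower p63-KO ciliated cells and in 4 of the 25 wild-type ones. A further 2 p63-KO cells of the class lay outside the ciliated cluster of the joint clustering and had UMIs of 1 ciliated marker each. Doublets had been called and removed, and with the called doublets left in, 12 of them fell in the p63-KO and 0 in the wild-type ciliated class. Whether the deep cells are doublets was not tested. The levels of single genes are therefore given for all wild-type ciliated cells, for all p63-KO ciliated cells and, as the last of 3 values, for the 32 p63-KO cells with at most 50000 UMIs.

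The family as a whole was concentrated in ciliated cells of both libraries. Its summed level was 22292 CPM (21929 to 22659, exact 95% Poisson interval) in wild-type ciliated cells and 384 CPM (379 to 388) in other wild-type epithelial cells, a 58.1-fold difference. In the p63-KO library the sums were 10497 CPM (10385 to 10610) and 623 CPM (617 to 629), a 16.8-fold difference. The 32 shallower p63-KO ciliated cells had 26597 CPM, 42.7-fold more (42.0 to 43.4) than the other epithelial cells. The p63-KO stromal cells had 411 CPM (397 to 426). Of 70 members with at least 5 CPM in either wild-type class, 68 were at least 4-fold higher in ciliated cells, where 14.9% of all measured genes were. In the p63-KO library 60 of 69 were, against 8.49% of all genes, and 68 of 70 with the shallower ciliated cells, against 15.6%. Of these members 56 in wild type and 52 in p63-KO reached 5 CPM in ciliated cells alone, so they had to be higher there, and the counts describe the class and test nothing. Among the 14 and 17 that reached it in other epithelial cells, 12 in wild type and 8 in p63-KO were at least 4-fold higher, and 15 with the shallower p63-KO cells. The 2 wild-type members under 4-fold were Cfap97 and the assembly factor Dnaaf2. The 9 in p63-KO were Cfap97, Dnaaf2, Dnaaf5, Dnah7b, Cfap69, Cfap20, Cfap410, Rsph3a and Rsph3b, and without the deep cells Cfap97 and Cfap410 alone.

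**Figure D1:**
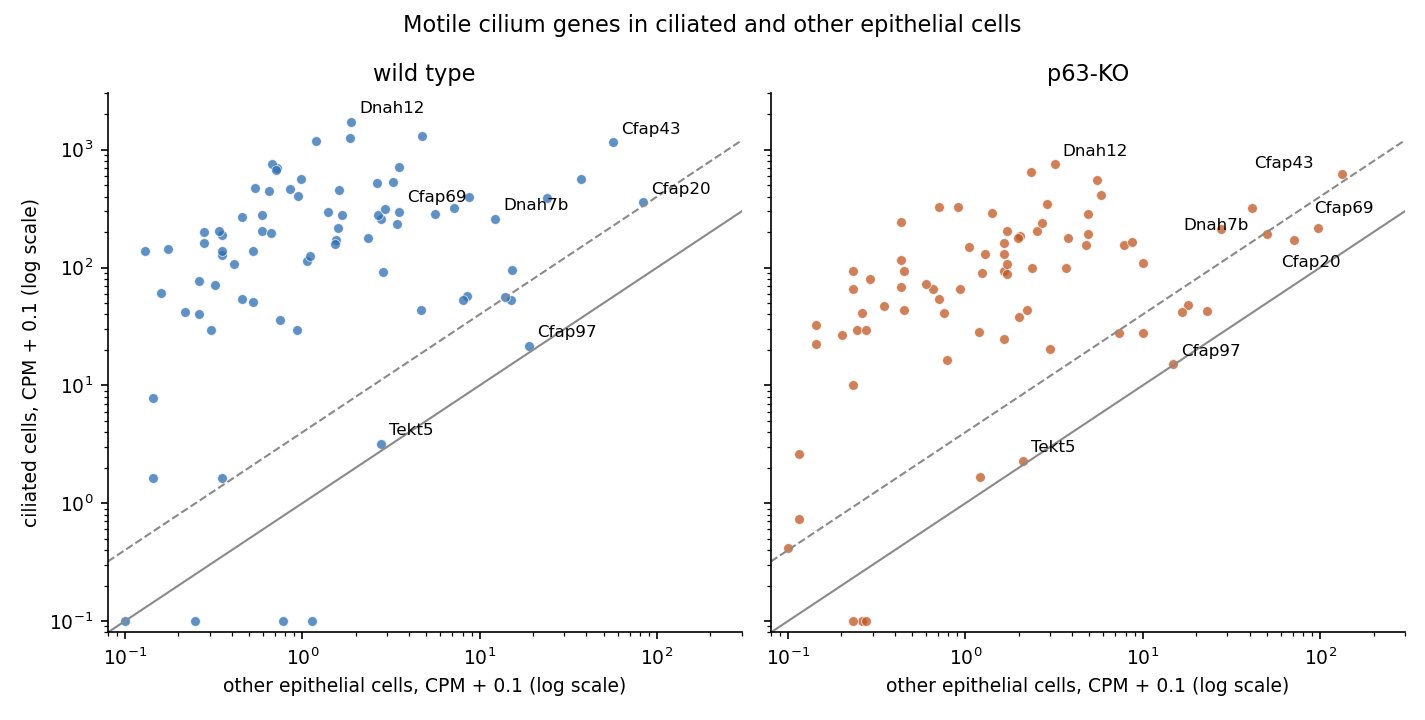
Summed level of each of the 77 genes in ciliated cells (vertical axis) and in other epithelial cells (horizontal axis) of the wild-type (left) and p63-KO (right) library, in CPM with 0.1 added, on log scales. The solid line marks equal levels and the dashed line 4-fold more in ciliated cells; 68 wild-type and 60 p63-KO measured genes lie on or above the dashed line.

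Among the outer arm chains, Dnah5, Dnah9 and Dnah11 had the most UMIs in ciliated cells. Dnah5, the heavy chain without which the outer arm is not built, had 668 CPM (606 to 734) in ciliated cells of the wild-type, 288 CPM (269 to 307) in those of the p63-KO library and 787 CPM in the shallower of these, and 0.607 and 1.31 CPM in other epithelial cells. Dnah9, known from the distal part of the cilium, had 568, 284 and 750.1 CPM, and Dnah11, known from its proximal part, 394, 178 and 499 CPM. The intermediate chains Dnaic1 (142, 68.6 and 187 CPM) and Dnaic2 (139, 72.7 and 178 CPM) accompanied them. Dnah8, a close relative of Dnah5 best known from sperm, was also present, with 158, 106 and 189.8 CPM. Dnah17, also known from sperm, had 0 UMIs in the wild-type class and 5 in the other.

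All 10 inner arm and related heavy chains were present in the ciliated cells of each library, down to 29.4, 28.3 and 73.0 CPM of Dnah14. Dnah12 (mm10, chromosome 14, 26693274 to 26891703) had 1120 UMIs in the 25 wild-type cells, 1732 CPM (1632 to 1836), and 2400 UMIs in the 56 p63-KO cells, 755 CPM (725 to 786), with 1896 CPM in the shallower ones. Its level in other epithelial cells was 1.79 and 3.08 CPM. Dnah6 had 705, 324 and 937 CPM and Dnah3 473, 242 and 742 CPM in ciliated cells, with under 1 CPM in other epithelial cells of each library. Dnah2 and Dnah10, which form the double-headed inner arm dynein, had 283, 160.4 and 370.4 CPM and 404, 149 and 378 CPM. Dnah7a, Dnah7b and Dnah7c are near-identical copies on chromosome 1 among which reads may have been split or dropped, so their single values are uncertain.

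Assembly factors were less restricted to ciliated cells. Cfap298, known to act in dynein assembly, had 559.8, 319 and 592 CPM in ciliated cells, but also 37.0 and 41.4 CPM in other epithelial cells. Dnaaf5 had 95.9, 47.8 and 99.6 CPM against 15.1 and 17.8 CPM, and Dnaaf2 52.6, 28.0 and 67.7 CPM against 14.8 and 9.91 CPM. Dnaaf3 (125, 43.4 and 101 CPM) and Dnaaf1 (54.1, 29.6 and 81.0 CPM) stayed at or under 2.13 CPM outside the ciliated class. The median log2 ratio of ciliated over other epithelial cells was 3.88 in wild type and 2.91 in p63-KO (3.93 without the deep cells) for the 7 factors, where it was 6.22 and 5.09 (6.51) over all measured members.

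The 3 nexin-dynein regulatory complex genes were low outside ciliated cells. Drc3 had 537 CPM (482 to 596) in ciliated cells of the wild-type, 194 CPM (179 to 210) in those of the p63-KO library and 540.3 CPM in the shallower of these. The 3 genes together had 3.74 and 5.68 CPM in other epithelial cells. Drc1 had 139, 65.1 and 204 CPM, and Drc7 77.3, 32.4 and 101 CPM. Of the radial spoke genes, the head protein Rsph1 had 1251 CPM (1166 to 1340), 556 CPM (531 to 583) and 1365 CPM, Cfap206 521, 238 and 580.1 CPM and Cfap61 464, 186 and 499 CPM. The other head proteins Rsph4a (190.2, 66.1 and 209.8 CPM) and Rsph9 (279.9, 109 and 289 CPM) followed, while Rsph6a, known from sperm, had 0 UMIs in ciliated cells of both libraries. Rsph3a and Rsph3b, copies that are hard to tell apart, had 6.64-fold and 4.02-fold more in wild-type ciliated than in other epithelial cells.

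In the central apparatus, Spag16 (chromosome 1, 69826970 to 70725132) had 1192 CPM (1110 to 1279) in ciliated cells of the wild-type, 329 CPM (309 to 350) in those of the p63-KO library and 787 CPM in the shallower of these, and 1.10 and 0.803 CPM in other epithelial cells. Spag17 had 711, 411 and 867 CPM and Cfap54 761, 345 and 944 CPM in ciliated cells. Spag6l, the copy of Spag6 that mouse ciliated epithelia use, had 278, 176 and 421 CPM, while Spag6 had 1 UMI in the wild-type class and 0 in the other. Cfap221 had 71.1, 41.2 and 106 CPM. Cfap69 was the exception of this group, with 97.0 CPM in other p63-KO epithelial cells.

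Of the microtubule inner proteins, Cfap126 had 453, 205 and 617 CPM, Cfap20 359, 172 and 346.5 CPM and Cfap45 320.1, 156 and 422 CPM. Cfap20, which also serves cilia that do not move, was the broad member, with 83.4 and 70.9 CPM in other epithelial cells. Tekt1 (196, 80.2 and 214 CPM), Tekt2 (41.7, 24.9 and 62.4 CPM) and Tekt4 (203, 93.1 and 236 CPM) were found in ciliated cells, as were the inner proteins Cfap52 (235, 129.6 and 327 CPM) and Cfap77 (257, 130.2 and 393 CPM), and Tekt3 and Tekt5 had 5 and 2 UMIs in the wild-type class. Among the other Cfap genes, Cfap299 had 1296, 642 and 1533 CPM, Cfap43 1154, 618 and 1622 CPM and Cfap44 444, 206 and 608 CPM. Cfap99 (40.2, 22.3 and 73.0 CPM) and Cfap100 (51.03, 29.3 and 101 CPM) were found there too. Cfap97 did not set the ciliated cells apart, with 21.6 CPM against 18.9 CPM in wild type and 15.1 CPM (21.2 CPM in the shallower cells) against 14.7 CPM in p63-KO.

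A last few members were close to silent. In wild-type ciliated cells 7 of the 77 genes were under 5 CPM: Spag6, Rsph6a, Dnah17, Tekt5, Cfap97d1 and the opposite-strand transcripts Dnah2os and Spag17os. In p63-KO the same 7 and Tekt3 were. By the upper end of the exact interval, a count of 0 in the wild-type class allows up to 5.70 CPM, and one in the p63-KO class up to 1.16 CPM, so low levels in the few wild-type cells were not detectable at this depth. The strand setting of the counting is not given in the sources used here, so the 2 opposite-strand genes cannot be told apart from their partners with certainty.

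Promoter sequence was available in RefSeq's GRCm38.p6 table for 63 members, and it was searched for the sites of the 2 factor families that drive these genes, on both strands from 250 bases before to 50 after the start of transcription. An X-box, the paired binding site of RFX factors, spelled GTTNCC, any 3 bases and GNAAC, stood in 7 of the 63 members (Spag16, Cfap44, Cfap45, Cfap61, Cfap298, Dnaaf2 and Tekt4) and in 0.936% of all 27025 genes. The core GTTGCC, which can lie inside it, stood in 26 members and in 14.1% of genes. The forkhead site TGTTTAC, of the kind Foxj1 binds, stood in 4 members (Cfap20, Cfap43, Dnah17 and Tekt3) and in 4.05% of genes. Cfap65, Cfap157, Spag17os, Cfap299, Cfap73, Rsph10b, Dnah3, Cfap97, Dnaaf1, Rsph4a, Cfap54, Dnah2os, Rsph1 and Cfap53 had no entry. Of the 7 genes with an X-box, 5 also held the core. The motif spellings were chosen after others had been tried, so these shares describe the promoters and test nothing. Shown are the 150 bases before the start for the 4 genes whose X-box lies wholly there and for Cfap43, which has a forkhead match, in the direction of transcription, with the match in capitals, which may read as the motif or as its reverse complement.
Spag16, chr1:69826820-69826969, plus strand: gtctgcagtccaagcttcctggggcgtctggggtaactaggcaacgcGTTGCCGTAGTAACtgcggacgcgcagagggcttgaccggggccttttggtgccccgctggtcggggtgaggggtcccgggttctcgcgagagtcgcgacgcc
Cfap44, chr16:44394649-44394798, plus strand: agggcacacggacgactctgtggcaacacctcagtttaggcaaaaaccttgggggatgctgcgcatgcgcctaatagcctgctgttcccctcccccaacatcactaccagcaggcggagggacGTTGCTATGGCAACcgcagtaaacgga
Cfap45, chr1:172520980-172521129, plus strand: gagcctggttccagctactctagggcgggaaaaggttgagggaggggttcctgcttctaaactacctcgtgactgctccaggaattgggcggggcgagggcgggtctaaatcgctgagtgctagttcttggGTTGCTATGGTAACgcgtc
Dnaaf2, chr12:69198430-69198579, minus strand: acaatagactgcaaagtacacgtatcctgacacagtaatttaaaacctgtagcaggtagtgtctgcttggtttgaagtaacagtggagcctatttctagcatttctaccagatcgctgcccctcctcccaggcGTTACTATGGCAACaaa
Cfap43, chr19:47837362-47837511, minus strand: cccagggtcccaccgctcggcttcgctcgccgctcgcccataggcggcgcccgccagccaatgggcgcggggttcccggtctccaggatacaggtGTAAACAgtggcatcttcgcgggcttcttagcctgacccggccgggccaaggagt
The X-boxes of Cfap44, Cfap45 and Dnaaf2 ended 13, 5 and 3 bases before the start, and that of Spag16 89 bases before it. The stretches of Cfap43 and Cfap45 lie within the coordinates of their genes, 47736857 to 47919287 (minus strand) and 172520801 to 172545870 (plus strand). The RefSeq starts used for these 2 are thus not the outermost starts of the genes. A match describes the sequence and does not show that a factor binds there.

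Cell by cell, the share of UMIs from the 77 genes varied widely among ciliated cells. In the 25 wild-type cells it ran from 0.951% to 4.99% of the cell's UMIs, with a median of 2.73%. The 32 p63-KO cells with at most 50000 UMIs spanned 0.0255% to 4.26%, median 2.57%, and the 24 deep cells 0.123% to 1.85%, median 0.399%. The shallower cells of the libraries overlapped over most of their range, whereas 18 of the 24 deep cells lay under 1%. The 3 shallower p63-KO cells under 1% included the 2 that lay outside the joint ciliated cluster. Across the wild-type cells the share was lower in deeper cells (Spearman's rho -0.81 over 25 cells of 1 library, a description in which depth enters both measures). Over the 56 p63-KO cells rho was -0.53, and over the 32 shallower ones 0.40. A median wild-type ciliated cell had UMIs of 62 of the 77 genes and a p63-KO one of 60.5. After thinning to 2000 UMIs, which left out 1 and 3 shallower cells, the medians were 29 and 21 genes.

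**Figure D2:**
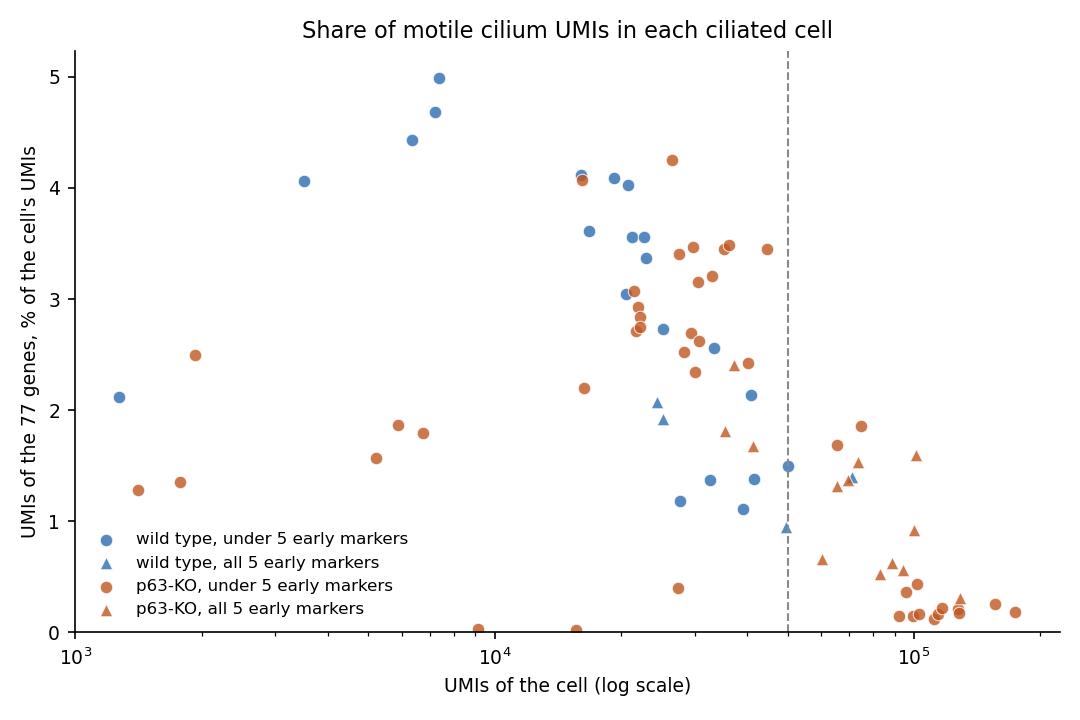
Share of each ciliated cell's UMIs that came from the 77 genes (vertical axis, percent) against the cell's UMIs (horizontal axis, log scale), for 25 wild-type and 56 p63-KO cells. Triangles are cells with UMIs of all 5 early markers, and the dashed line marks 50000 UMIs; the 24 p63-KO cells to its right have a median of 0.399%, and the 32 to its left a median of 2.57%.

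Between the libraries, the direction of the whole family hung on the deep cells. Over all ciliated cells, 70 of 70 measured members stood lower in the p63-KO library. Their median log2 ratio was -1.06, and 65 of the 70 had a counting interval that left out equality. At least 2-fold lower were 41 members, where 12.1% of all measured genes were, and 0 were at least 2-fold higher, where 13.7% were. With cells of at most 50000 UMIs (24 and 32 cells) the median was 0.28, 59 members were higher in p63-KO, 1 at least 2-fold (12.5% of all genes) and 0 at least 2-fold lower (13.1%). These cells are not alike in other markers: the squamous markers summed to 7490 CPM for wild type, against 301 CPM for p63-KO, and their part in the ratio was not tested. The interval lay above equality for 28 members, below it for 2 and held it for 40. The summed levels were then 23312 CPM (22919 to 23710) for wild type and 26597 CPM (26230 to 26968) for p63-KO, a ratio of 1.14, while the deep p63-KO cells had 5497 CPM (5404 to 5591). With every cell weighing equally the sums were 27992 and 16669 CPM, the median log2 ratio was -0.62 and 12 members were at least 2-fold lower. With cells of at most 5% mitochondrial UMIs (39 wild-type and 26 p63-KO cells after clustering anew) the median was -0.20 and 1 member was 2-fold lower, and with ciliated cells taken by at least 5 of the 14 markers (35 wild-type and 211 p63-KO cells) it was -2.79 and 66 were. The limit of 50000 UMIs was chosen after the data were seen.

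The gene groups shared this direction. Over all cells the median log2 ratio was -1.02 for the outer arm, -1.04 for the inner arm and related chains, -0.99 for assembly, -1.23 for the nexin-dynein regulatory complex, -1.17 for the radial spoke, -0.92 for the central apparatus, -1.06 for inner proteins and tektins and -1.01 for other Cfap genes. Without the deep cells the same medians ran from 0.07 for the radial spoke to 0.36 for the nexin-dynein regulatory complex. Dnah12 had 1806 and 1896 CPM in the shallower wild-type and p63-KO cells, 1.05-fold (0.968 to 1.14), and Rsph1 1289 and 1365 CPM, 1.06-fold (0.963 to 1.17).

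**Figure D3:**
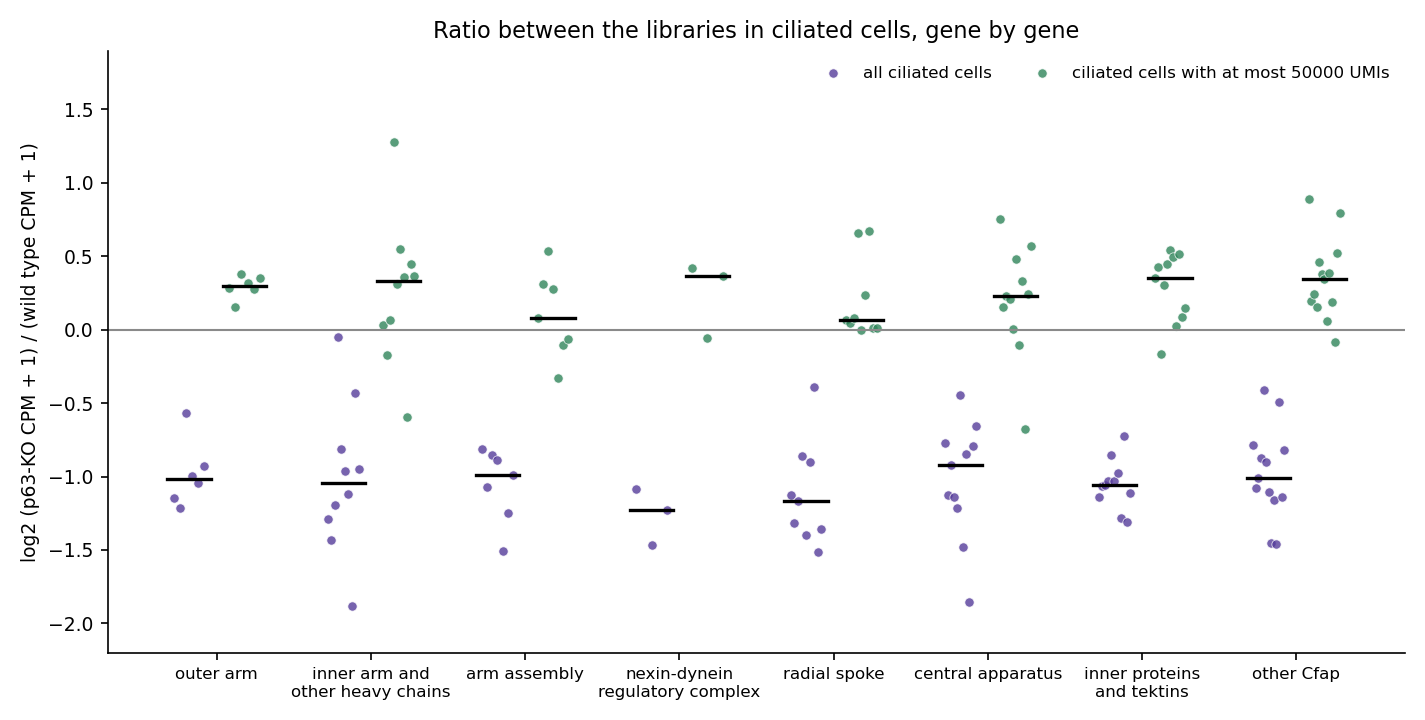
Ratio between p63-KO and wild-type ciliated cells of each measured gene (vertical axis, log2 of CPM with 1 added), by group. Purple points use all ciliated cells and green points those with at most 50000 UMIs, and black bars are group medians; all 70 purple points lie below 0 and 59 of 70 green points above it.

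A few genes departed from their group with either set of cells. Spag16 was lower in p63-KO over all cells, 3.62-fold (3.30 to 3.98), and also over the shallower cells, where it had 1261 and 787 CPM, a ratio of 0.624 (0.559 to 0.697). Dnah7a, 3.74-fold lower over all cells, had 219 and 145 CPM in the shallower cells, a ratio of 0.661 (0.507 to 0.861). These 2 were the members whose interval stayed below 1 there. Dnah7a's near-identical copies Dnah7b and Dnah7c had ratios of 1.36 and 1.29 in the same cells, so its value is open to the sharing of reads. Dnah14, a heavy chain of unclear place, was the member over 2-fold higher there, with 29.5 and 73.0 CPM (ratio 2.47, 1.41 to 4.55) from 17 and 55 UMIs. Members with no value given above that were at least 2-fold lower over all cells, with an interval leaving out 1, were Cfap46, Cfap53, Cfap57, Cfap58, Cfap65, Cfap70, Cfap73, Cfap97d2, Cfap157, Cfap161, Cfap300, Dnaaf4, Dnah1 and Rsph14. Cfap53 had 179 CPM in wild-type and 87.5 CPM in p63-KO ciliated cells. The ratios of the others over all cells ran from 0.343 (Cfap73) to 0.475 (Cfap161).

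Cells early in differentiation were marked by UMIs of Deup1, Ccno, Cdc20b, Myb and Mcidas, genes of centriole amplification and its control. With at least 2 of the 5, 20 of 25 wild-type and 41 of 56 p63-KO ciliated cells counted as early. Their summed level was 20731 CPM against 39396 CPM in the 5 later wild-type cells, and 10064 CPM against 13761 CPM in the 15 later p63-KO cells. Deeper cells reach such a count more easily. The median depths were 25240.5 and 7359 UMIs in wild type and 65681 and 16164 UMIs in p63-KO. Most deep p63-KO cells counted as early, and the p63-KO sums were not repeated without them, so their order in the shallower cells is not given. A stricter rule of all 5 markers, added after the data were seen, left 4 wild-type cells with 14446 CPM (13880 to 15028) against 25095 CPM in the other 21. These 4 were also deeper, with a median of 37406 UMIs against 21209 UMIs, and the part of depth in the gap was not tested. In p63-KO the stricter rule left 13 cells, 10 of them deep, with 10258 CPM (10058 to 10460), against 27849 CPM in the 29 shallower cells with fewer markers and 10604 CPM in all 43 cells with fewer.

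Members differed in how they stood in the cells with all 5 early markers. Compared with the 29 shallower p63-KO cells, 58 of 70 members were at least 2-fold lower, where 21.5% of all genes were. As 10 of the 13 p63-KO cells with all 5 markers are deep, this also sets deep against shallower cells. Among deep p63-KO cells alone the order was the reverse. The summed level had a per-cell median of 7948 CPM in the 10 with all 5 markers and 2005 CPM in the 14 with fewer. In wild type 31 of 71 were (23.3% of all genes). Against all 43 p63-KO cells with fewer markers, deep cells included, 13 of 69 were, with 13.5% of all genes. All 31 wild-type members were among the 58, but those are most of the 70, so the counts alone give a large overlap. The overlap over all genes was not computed. Dnah8 (chromosome 17, 30624354 to 30877365) went the other way in both libraries. It had 411 CPM from 70 UMIs in the 4 wild-type cells against 67.2 CPM in the rest, 6.12-fold (3.98 to 9.62), and 298 CPM from 292 UMIs against 46.9 CPM in p63-KO, 6.35-fold (4.36 to 9.59). Against all 43 p63-KO cells with fewer markers, deep ones included, it was 14.3-fold higher (10.4 to 19.9). Its relative Dnah5 was lower in the same cells, with 341 against 785 CPM in wild type and 235 against 859 CPM in p63-KO, but 235 against 311 CPM with all 43 cells, a ratio of 0.755 in place of 0.274. Cfap298 was near equal or higher, 1.48-fold (1.18 to 1.84) and 1.10-fold (0.956 to 1.27), and so was Cfap36, 1.53-fold (1.17 to 1.99) and 0.985-fold (0.831 to 1.17). With all 43 p63-KO cells these p63-KO ratios were 2.41 and 2.37. At the other end, the inner protein Cfap53 had 11.7 against 239 CPM and 17.4 against 347 CPM, and Cfap97d2 35.2 against 267 CPM and 29.6 against 364 CPM. With all 43 p63-KO cells the other side was 119 CPM for Cfap53 and 121 CPM for Cfap97d2.

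**Figure D4:**
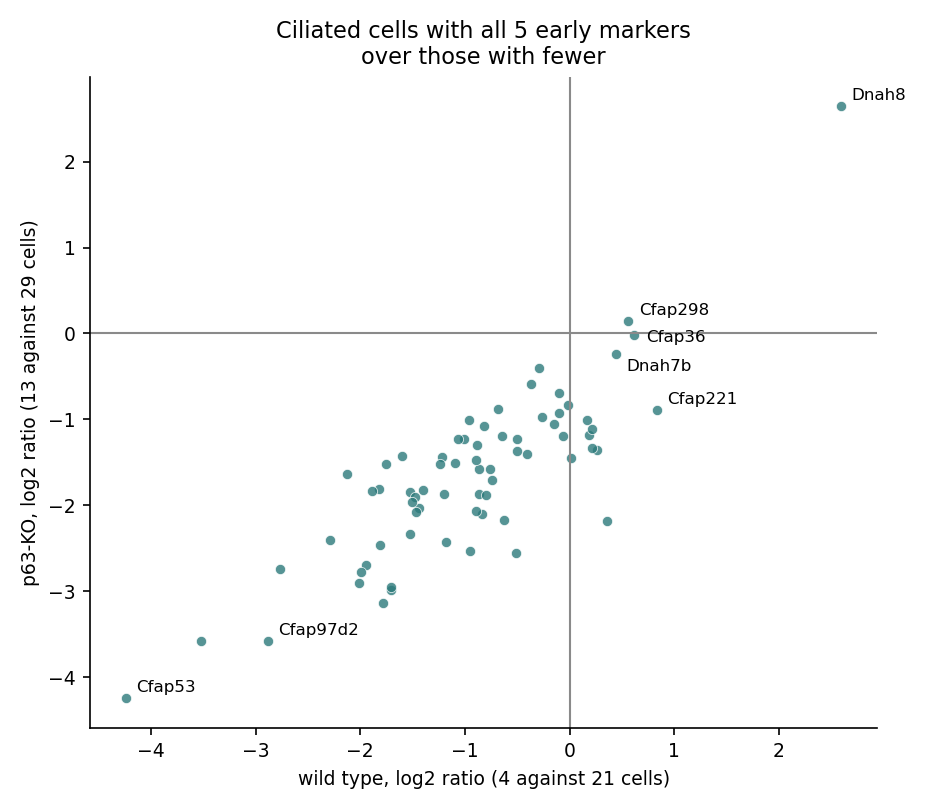
Log2 ratio of each measured gene between ciliated cells with UMIs of all 5 early markers and those with fewer, in wild type (horizontal axis, 4 against 21 cells) and p63-KO (vertical axis, 13 against 29 cells, the latter with at most 50000 UMIs), in CPM with 1 added. Of the 13 p63-KO cells, 10 have over 50000 UMIs. Dnah8 lies farthest to the upper right, Cfap298 also lies above 0 on both axes, and Cfap53 lies at the lower left.

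Outside the ciliated class, 19 members had at least 5 CPM in the other epithelial cells of either library, and in p63-KO 7 of them exceeded wild type at least 2-fold, where 14.8% of all measured genes were. These were Cfap69, Dnah7b, Rsph9, Rsph1, Cfap47, Cfap410 and Cfap43. Dnah2 and Dnah11 were at least 2-fold lower, where 9.18% of genes were. The other 10 stayed within 2-fold, among them Cfap20, Cfap298 and Cfap36, and the median log2 ratio of the 19 was 0.22. Cfap69, Rsph9, Rsph1 and Cfap47 reached 5 CPM in p63-KO alone and so had to be higher there. Dnah2 and Dnah11 reached it in wild type alone and had to be lower in p63-KO. The counts therefore describe these cells and test nothing.

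Cfap69 (chromosome 5, 5579278 to 5664239), a central apparatus gene also known from the cilia of olfactory neurons, showed the widest gap. The 5334 wild-type cells held 229 UMIs of it, 3.39 CPM (2.97 to 3.86), and the 1622 p63-KO cells 6644 UMIs, 97.0 CPM (94.7 to 99.3), 28.6-fold more (25.1 to 32.8). The wild-type subclusters outside the ciliated one ran from 1.58 to 8.10 CPM and the p63-KO ones from 21.9 to 137 CPM, so the libraries did not overlap. After each cell was thinned to 2000 UMIs (79 wild-type and 21 p63-KO cells were shallower and left out), a Cfap69 UMI remained in 0.761% (0.544 to 1.04) of wild-type and 14.2% (12.6 to 16.0) of p63-KO cells, from 3.69% and 65.4% before. In p63-KO stromal cells the thinned share was 0.856% (0.279 to 1.99), from 5.25% before. Dnah12, with 755 CPM in p63-KO ciliated cells to Cfap69's 217, stood at 3.08 CPM in the other epithelial cells, so the ratio of the 2 genes differed between the classes.

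Cfap43 (chromosome 19, 47736857 to 47919287), needed for the sperm flagellum, had 56.3 CPM (54.5 to 58.1) in other wild-type and 133 CPM (130 to 136) in other p63-KO epithelial cells. It varied among subclusters in each library. The squamous-like wild-type subcluster had 159.98 CPM, and the remaining 6 wild-type ones ran from 10.4 to 44.0 CPM. In p63-KO it ranged from 2.41 CPM in the larger neuroendocrine-like subcluster to 201 CPM in the subcluster led by Asprv1, Ecm1 and Krt13 among others. Dnah7b, subject to its near copies, had 12.0 CPM (11.2 to 12.9) among wild-type and 50.2 CPM (48.5 to 51.9) among p63-KO cells, and was highest in the same 2 subclusters, with 26.9 and 56.7 CPM. The cells of the libraries share few subcluster types, so a difference in level and a difference in cell makeup cannot be told apart here.

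The heavy chains Dnah11 and Dnah2 were lower in the p63-KO library. Dnah11 had 8.64 CPM (7.96 to 9.37) and 1.87 CPM (1.56 to 2.22), 4.63-fold lower, and in wild type it was highest in the squamous-like subcluster at 18.3 CPM. Dnah2 had 5.48 CPM (4.93 to 6.06) and 1.55 CPM (1.27 to 1.87), 3.54-fold lower, with a wild-type range of 0.676 to 12.7 CPM. The remaining members with a 2-fold gap were low, from 1.76 to 5.44 CPM for Rsph1, 2.56 to 9.87 CPM for Rsph9, 2.81 to 8.55 CPM for Cfap47 and 8.36 to 23.0 CPM for Cfap410.

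**Figure D5:**
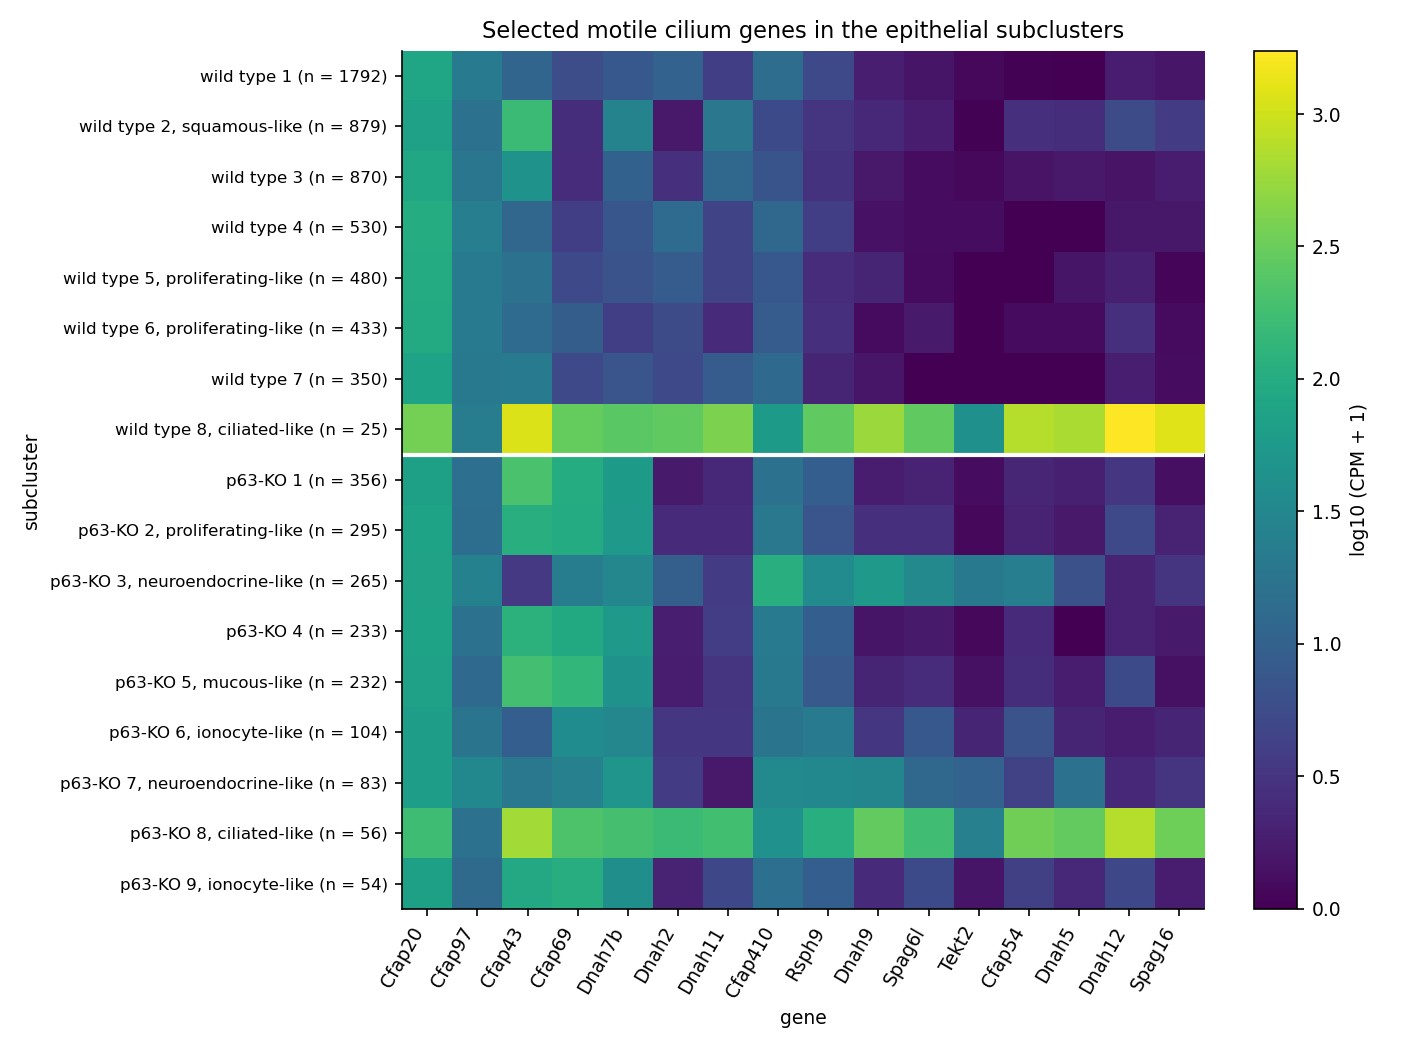
Level of 16 selected genes (columns) in the epithelial subclusters of each library (rows, with the number of cells), as log10 of CPM with 1 added. The ciliated-like rows are bright for nearly all genes, Cfap69 is brighter in every p63-KO row than in the non-ciliated wild-type rows, and the row p63-KO 3 holds Dnah9, Spag6l, Tekt2 and Cfap410.

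The p63-KO library also held neuroendocrine-like cells, 2 subclusters with 348 cells led by Chgb and by Gzma and Neurog3. Compared with the other 1274 non-ciliated p63-KO epithelial cells, 14 of 32 measured members were at least 4-fold higher, where 14.3% of all genes were. Of the 32, 16 reached 5 CPM in the neuroendocrine-like cells alone and so had to be higher there. Of the 16 that reached it in the other cells, Cfap410 and Rsph9 were at least 4-fold higher. Dnah9 had 47.0 CPM (41.3 to 53.2) against 1.31 CPM, Spag6l 26.3 CPM (22.1 to 31.1) against 1.82 CPM and Tekt2 16.5 CPM (13.2 to 20.4) against 0.316 CPM. Cfap410, also known from cilia that do not move, had 85.1 CPM (77.4 to 93.4) against 17.9 CPM. Cfap54, Cfap44, Cfap61, Cfap300, Dnah2, Dnah5, Dnah7a, Rsph9, Cfap53 and Tekt5 made up the rest, from 5.37 to 34.5 CPM. By contrast Dnah12 had 1.15 CPM there and Spag16 2.11 CPM, and Cfap43, Cfap69 and Spag17 were at least 2-fold lower than in the other cells, where 14.8% of all genes were.

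In sum the family was little higher in the neuroendocrine-like cells. The summed level was 759 CPM (735 to 783) against 612 CPM (606 to 618), 1.24-fold. Of the 14 ciliated markers outside the set, 13 had a UMI, at 177 CPM in all. All p63-KO ciliated cells had 4682 CPM of these markers, and the shallower ones 12536 CPM. Foxj1 had 0.802 CPM and Rfx3 753 CPM in the larger of the 2 subclusters and 13.6 and 556 CPM in the smaller. In p63-KO ciliated cells they had 380 and 393 CPM, and in the shallower of these 860.3 and 835 CPM. All other p63-KO epithelial cells had 5.14 CPM of Foxj1. In the smaller of the ionocyte-like subclusters Foxj1 had 15.1 CPM and in the larger 50.3 CPM, where the 77 genes summed to 572 and 544 CPM. After thinning to 2000 UMIs, a Dnah9 UMI remained in 8.77% (6.00 to 12.3) of 342 neuroendocrine-like cells, in 2.06% (1.42 to 2.88) of all other p63-KO epithelial cells, these included, and in 0.342% (0.0415 to 1.23) of stromal cells. Before thinning these shares were 35.1%, 12.2% and 0.847%.

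In stromal cells the family stayed at the level of the broad members. Of the 77 genes 18 had at least 5 CPM in the 590 p63-KO stromal cells, led by Cfap20 with 78.5 CPM (72.2 to 85.2) and Cfap36 with 45.9 CPM (41.1 to 51.1). Cfap298 had 24.1, Cfap97 23.3, Dnah7b 19.8, Dnaaf2 13.1, Cfap300 10.7, Cfap410 10.5, Rsph3a 8.82, Rsph9 8.68, Rsph3b 7.30, Cfap74 6.61 and Dnaaf5 6.34 CPM. A stromal cell with 84500 UMIs carried 591 UMIs of the family and all 14 ciliated markers. Without it the sum fell from 411 to 334 CPM (321 to 347), Dnah12 from 10.9 to 0.139 CPM, Cfap43 from 19.0 to 9.34 CPM, Cfap299 from 10.7 to 5.16 CPM, Cfap69 from 5.92 to 4.46 CPM and Dnah2 from 5.37 to 4.46 CPM, which leaves 15 members at 5 CPM or more. Ciliated p63-KO cells were at least 4-fold above stromal cells in 64 of 69 measured members, where 15.8% of all genes were, and 51 of the 69 reached 5 CPM in ciliated cells alone. Compared with other p63-KO epithelial cells, Cfap74 and Cfap299 were at least 4-fold higher in stromal cells, 2 of 22 measured members, where 12.2% of all genes were, and Cfap299 only with the stromal cell of 84500 UMIs counted. Of these 2 classes, both genes reached 5 CPM in stromal cells alone, so they had to be higher there. The 5 members less than 4-fold above stromal cells in ciliated cells were Cfap97, Cfap20, Cfap300, Dnaaf2 and Rsph3a. This comparison uses all p63-KO ciliated cells, deep ones included, and was not repeated without them. The levels of Cfap20 and Dnaaf2 given above were higher in the shallower cells.

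Much of the family's RNA lay outside the few ciliated cells. These held 14416 of 40329 epithelial UMIs of the 77 genes in wild type, 35.7% (35.3 to 36.2), and 33369 of 76055 in p63-KO, 43.9% (43.5 to 44.2). With ciliated cells of at most 50000 UMIs the shares were 34.1% and 31.9%, so which library had the larger share depended on the deep cells. With ciliated cells taken by 5 of the 14 markers they were 38.0% and 56.1%. Over all cells their share of all epithelial UMIs was 0.948% and 4.43%. For 48 members in wild type and 53 in p63-KO, more than 50% of the epithelial UMIs came from ciliated cells. Over the whole epithelium the family had 591 (wild type) and 1061 CPM (p63-KO). The number of ciliated cells, their RNA content and the level within them all enter this ratio. So does the level in other epithelial cells, 384 CPM in wild type and 623 CPM in p63-KO.

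Genes of 3 other cilium lists were read in the same cells. Of 12 regulators of multiciliated cells, 10 in wild type and 9 in p63-KO (10 without the deep cells) were at least 4-fold higher in ciliated than in other epithelial cells. All 38 measured axoneme and assembly genes with other names were, in each library. Of 26 genes of intraflagellar transport and the BBSome, which also serve cilia that do not move, 23 and 12 were, and 21 in p63-KO without the deep cells. Over all measured genes the shares were 14.9% in wild type, 8.49% in p63-KO and 15.6% without the deep cells. Foxj1 of the regulators and Hydin, Ak7, Dynlrb2, Mns1, Tppp3, Pifo and Lrrc23 of the axoneme genes are among the ciliated cell markers. The ciliated class was named by a rise of those markers, and no listed gene was kept out of the clustering. The counts therefore describe the class and test nothing.

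Between the libraries the axoneme genes had a median log2 ratio of -1.08 in ciliated cells, near that of the 77 genes, the transport genes -0.69 and the regulators -0.21, with 1 regulator at least 2-fold lower. With at most 50000 UMIs the medians were 0.25, 0.39 and 0.34. The regulators whose ratios over all cells lay farthest from 1 were Gmnc (23.2 CPM in wild type, 5.98 in p63-KO and 13.3 in the shallower p63-KO cells), Rfx2 (172, 92.5 and 218 CPM) and Rfx3 (594, 393 and 835 CPM). Without the deep cells of either library Rfx3 was 1.32-fold higher in p63-KO (1.16 to 1.51) and Rfx2 1.24-fold (0.963 to 1.61). Among the axoneme genes these were Dynlrb2 (1386, 499.5 and 1251 CPM), Ccdc103 (63.4, 22.6 and 55.8 CPM) and Wdr63 (374, 146 and 362 CPM). Among the transport genes they were Kif17 (15.5, 5.35 and 13.3 CPM), Ift43 (524, 229 and 548 CPM) and Ift88 (295, 134 and 291 CPM). Foxj1, named here after its values were seen, had 439, 380 and 860.3 CPM, a ratio of 0.865 over all cells. Without the deep cells of either library its ratio had an interval of 1.65 to 2.21. In other epithelial cells it had 0.696 CPM in wild type and 5.14 CPM in the p63-KO library.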

How the data were processed

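The deposited values are counts: per the labels a 10x 3' V2 kit was used, the submitters' processing notes list Cell Ranger (7.1.0) with mm10 as build, and the authors deposited whole-number UMI counts of 32285 genes for 6034 wild-type (76472445 UMIs) and 2821 p63-KO barcodes (86504624 UMIs). For the annotation release and the counting of introns, no statement was found in the sources used here.

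Kept were cells with 500 or more genes, 1000 or more UMIs and a mitochondrial share of no more than 10%, 5787 and 2422. Doublets were scored by the share of simulated doublets among 50 neighbours and removed at 0.8% per 1000 cells, 268 and 47. Cells were clustered jointly (2000 variable genes without the 77, 30 components, 20 neighbours, Leiden resolution 1), and the epithelial cells of each library again at 0.6 (Python 3.11.15 with numpy 2.4.6, pandas 2.3.3, leidenalg 0.10.2, scipy 1.17.1, igraph 0.11.9 and scikit-learn 1.9.0). To be named, a cluster needed 3 or more markers of a type, each with UMIs in 25% of its cells or more, and in subclusters also 2-fold above the other cells. In the joint clusters, 149 wild-type and 20 p63-KO cells stayed unnamed.

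Counts were summed per class and scaled to CPM. CPM are not scaled by length, and levels are compared within a gene. A gene was measured from 5 CPM in either class compared. Folds are ratios of CPM, and log2 ratios have 1 added. Intervals are exact 95% Poisson (levels), conditional binomial (ratios) and Clopper-Pearson (shares). No test was possible with 1 library per group. Thinning took 2000 UMIs per cell. The ratio scripts were tested on simulated data.

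The members and gene lists were chosen with earlier results of these data known. Named are the 3 members of each group with most UMIs in ciliated cells, those at least 2-fold apart between the libraries in ciliated cells with an interval leaving out 1, those from 5 CPM on in stromal cells, and 3 genes of each other list by absolute ratio in ciliated cells. Others were chosen after their values were seen. Of the 40 listed axoneme genes 39 were found by symbol. GENCODE M21, on that build, gave the coordinates. The motif spellings were chosen after others had been tried. Alternatives were another pseudocount, CPM limits, marker rule, mitochondrial limit, resolution and scaling, doublets kept and cells weighing equally. Added after seeing the data were the limit of 50000 UMIs, the joint ciliated cluster, cells with at least 8 ciliated markers left out of the other classes, and neuroendocrine-like cells left out.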

Additional observations from a re-analysis of the deposited data

How the results depend on the processing

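With genes counted from 1 CPM on, 1 member was at least 2-fold higher in p63-KO ciliated cells, and from 20 CPM on the median log2 ratio in other epithelial cells was 1.22. Taking ciliated cells by at least 5 of 14 markers gave a median log2 ratio of -2.79 with 66 members 2-fold lower, sums of 14833 CPM (wild type) and 2338 CPM (p63-KO) in ciliated and 372 CPM in other wild-type epithelial cells, and shares of epithelial UMIs in ciliated cells of 38.0% and 56.1%. With doublets kept the ciliated sums were 20466 and 8974 CPM and the wild-type share 34.3%. At most 5% mitochondrial UMIs gave medians of -0.20 in ciliated and 0.67 in other epithelial cells, 1 member 2-fold higher and 1 lower in ciliated cells, sums of 19324 and 17193 CPM in ciliated and 672 CPM in other p63-KO epithelial cells, and a wild-type share of 33.8%. With every cell weighing equally the medians were -0.62 and 0.44, 12 members were 2-fold lower, and the sums were 27992 and 16669 CPM in ciliated, 369.8 and 662 CPM in other epithelial and 347 CPM in stromal cells. Leaving the 50 most abundant genes out of the total gave 25779 and 12742, 483 and 769, and 465 CPM in the same order. Chosen after seeing the data, the limit of 50000 UMIs turned the ciliated median to 0.28 with 1 member 2-fold higher and 0 lower, sums of 23312 and 26597 CPM and shares of 34.1% and 31.9%. Leaving out other cells with 8 or more ciliated markers gave 373 CPM in other wild-type epithelial and 334 CPM in stromal cells and a wild-type share of 36.5%. Leaving out neuroendocrine-like cells gave 612 CPM in other p63-KO epithelial cells and a share of 46.3%. The causes of these shifts were not tested. A resolution of 1.2 and ciliated cells also in the joint cluster left the results listed here in place, with counts within 1.5 times and levels and shares within their counting intervals, and a pseudocount of 5 CPM, run for the medians alone, kept their direction. The members at least 4-fold higher in ciliated cells numbered 66 to 70 in wild type and 49 to 68 in p63-KO over all settings. No paired analysis was possible because each group holds 1 library, and 25 wild-type ciliated cells set the depth.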
